A study of Mus musculus with 6 samples.

Results

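Mesothelial transcripts were followed in 3 fat depots of mice with and without Kdm4b, a gene that encodes a histone H3 demethylase. The set was a fixed list of 9 genes, Upk3b, Upk1b, Msln, Lrrn4, Nkain4, Gpm6a, Wt1, Bnc1 and Slpi. Every probe set annotated to 1 of these symbols alone was taken, 14 of the 34945 probe sets with a single symbol, and the 9 genes stand among 18193 on the array. RNA came from epididymal (Epi), subcutaneous (SubQ) and brown (BAT) fat of male mice aged 2 months that lacked Kdm4b in the whole body (KO) or were wild type (WT). All mice were kept on chow at room temperature and fasted for 6 hours. Each depot and genotype was measured on 1 Affymetrix array, 6 arrays in all. The labels do not say how many animals gave a sample, whether depots came from the same animals or what the deletion removed. The study asked what differs in the fat of mice that become obese without Kdm4b.

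Mesothelium is the flat epithelium that lines the body cavities and covers the organs and fat pads within them. The epididymal pad lies in the peritoneal cavity and carries such a covering, whereas the subcutaneous and interscapular brown pads lie outside it. Mesothelial cells arise from mesoderm, carry keratins of simple epithelia, and secrete lubricants and protease inhibitors onto the serosal surface. Several of the genes take their names from other tissues, the bladder for the uroplakin genes Upk3b and Upk1b and nerve cells for Lrrn4 and Gpm6a.

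Values are MAS5 signals, the linear brightness of a probe set on 1 array after scaling, and a signal of 63.2 was taken as a floor below which signals carry no order. Between 12650 and 13601 of 18193 genes lay above it on an array. Kdm4b had signals of 188.4 in KO and 226.7 in WT epididymal fat, 156.7 in KO and 272.1 in WT subcutaneous fat, and 95.2 in KO and 134.6 in WT brown fat. KO lay under WT in each depot, but the labels do not show whether the probe set used lies within the deleted part. The adipocyte hormone gene Adipoq had a signal of at least 26703.7 on all 6 arrays. Ucp1, the uncoupling protein gene of brown adipocytes, was brightest in brown fat, at 40618.7 in KO and 44367.1 in WT.

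The mesothelial genes were brightest in epididymal fat. Elsewhere 5 of the 9 exceeded the floor on at most 1 array with their brightest probe set, while Slpi had up to 317.9, Lrrn4 up to 225.2 and Gpm6a up to 169.8. All 14 probe sets were brighter on both epididymal arrays than on any of the other 4 arrays, an order that 14.0% of the 14094 genes tested had. Log2 differences ran from 2.87 for Wt1 to 5.83 for Upk3b between epididymal and subcutaneous fat, and from 2.39 for Lrrn4 to 6.23 for Upk3b between epididymal and brown fat. Their medians were 3.78 and 3.74, beside -0.002 and 0.04 for all genes tested.

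In a limma fit of the 6 arrays, all 9 genes passed as higher in epididymal than in subcutaneous fat (adjusted p between 0.00288 and 0.00665) and than in brown fat (adjusted p between 0.000997 and 0.00397). Of all genes tested, 1.23% were called higher and 4.12% lower against subcutaneous fat, and 24.5% higher and 17.9% lower against brown fat. Of the 9 genes, 4 were above the floor on at least 2 arrays outside epididymal fat. The other 5 entered the fit only through the depot in which they were bright and so had to differ, and the list was drawn up with depot differences known, so the count of 9 is a description. With any 1 of the 6 arrays left out, 0 of the 9 genes and 0 of all genes passed between epididymal and subcutaneous fat (smallest adjusted p among the 9 = 0.122, 1 residual degree of freedom in place of 2), while 8 or 9 passed against brown fat. With the floor at the 20th percentile 3 of the 9 passed against subcutaneous fat, with no floor 2 and with no filter on low signals 1. Fewer mesothelial cells and less RNA per cell cannot be told apart in whole tissue.

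**Figure D1:**
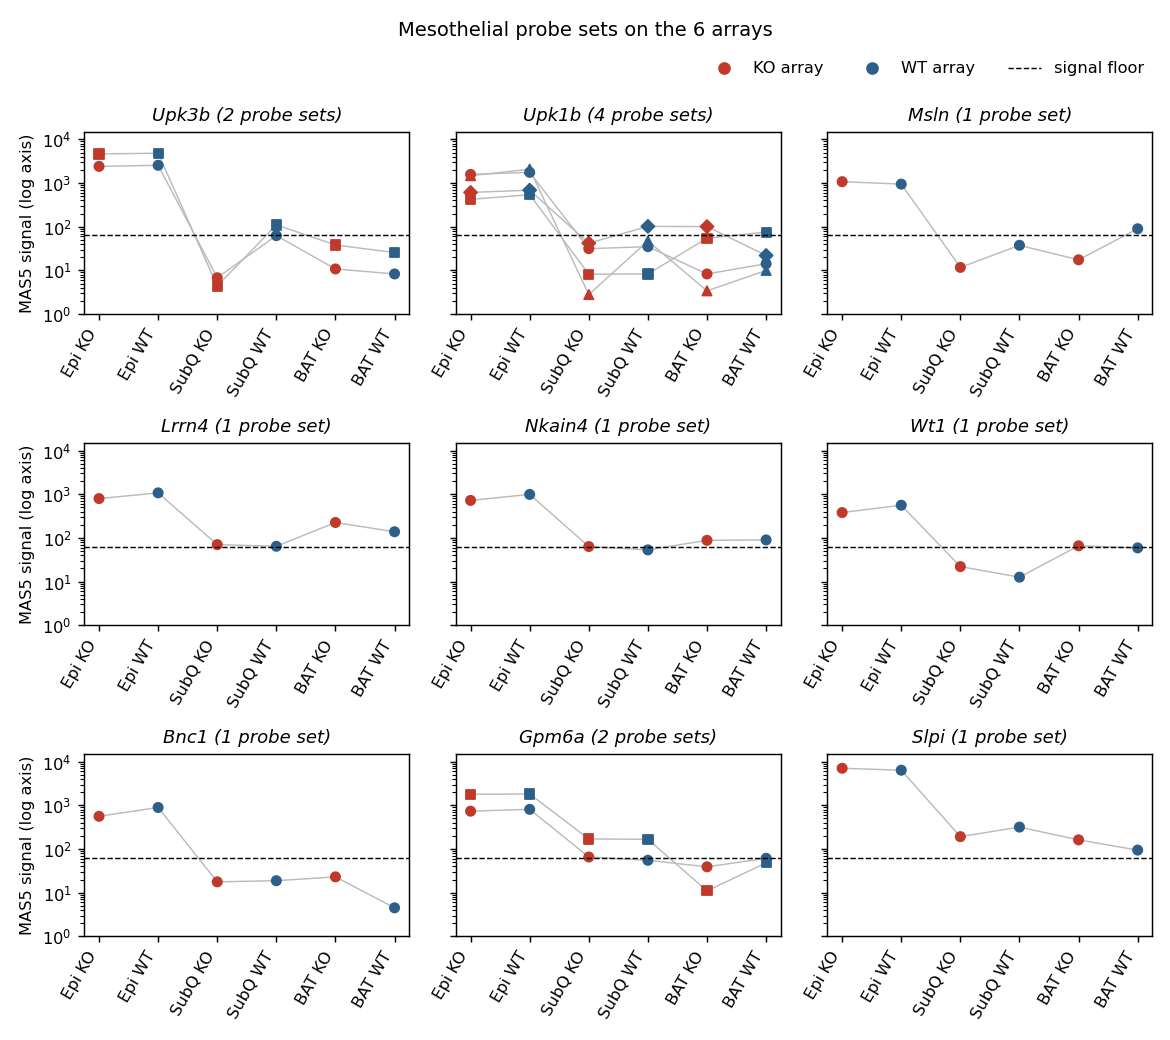
MAS5 signal on a log axis (vertical) of each mesothelial probe set on the 6 arrays (horizontal), KO arrays in red and WT arrays in blue, with 1 marker shape per probe set of a gene and a dashed line at the floor of 63.2. Both epididymal arrays lie above the other 4 for all 14 probe sets, and many points of the other depots lie under the floor, with Slpi and Lrrn4 above it on all arrays.

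Of the 9 genes, Upk3b had the widest gap against either depot. Upk3b, a membrane protein gene of mesothelium related to the uroplakins of bladder, had signals of 4651.4 in KO and 4839.2 in WT epididymal fat, 4.4 in KO and 110.2 in WT subcutaneous fat, and 38.3 in KO and 25.6 in WT brown fat on its brighter probe set. Its second probe set gave 2413.2 in KO and 2553.1 in WT epididymal fat and at most 62.6 elsewhere. On the brighter probe set the epididymal level was at least 56.9-fold that of subcutaneous fat (log2 difference 5.83, 2 against 2 arrays) and at least 75.1-fold that of brown fat. Upk3b entered the fit only through epididymal fat and so had to differ, and no SE or p-value is given for it. A fold reads "at least" where an array of the dimmer depot lay at or under the floor, as both brown fat arrays and the KO subcutaneous array did here.

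Upk1b encodes a tetraspanin of the same membrane plaques in bladder and had 4 probe sets. The brightest gave 1473.3 in KO and 2081.5 in WT epididymal fat, 2.8 in KO and 47.1 in WT subcutaneous fat, and 3.4 in KO and 10 in WT brown fat. Over all 4 probe sets the epididymal signals lay between 424.3 and 2081.5 and the other signals between 2.8 and 101.9, without overlap. On the brightest probe set the epididymal level was at least 27.7-fold that of either other depot (log2 difference 4.79). This gene too had to differ by its way into the fit, so its p-values are left out. The probe sets disagreed on the size. The one with 610.3 in KO and 689.2 in WT epididymal fat had 101.9 in WT subcutaneous fat and 100.9 in KO brown fat, both above the floor, and its log2 differences from subcutaneous fat were 3.27 in KO and 2.76 in WT.

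Msln encodes mesothelin, a surface glycoprotein held by a lipid anchor. It had 1077.4 in KO and 946.8 in WT epididymal fat, 11.7 in KO and 37.6 in WT subcutaneous fat, and 17.5 in KO and 89.9 in WT brown fat. WT brown fat was the one array above the floor outside the epididymal pad. The epididymal level was at least 16.0-fold that of subcutaneous and at least 13.4-fold that of brown fat, differences that its way into the fit required.

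Lrrn4, a gene for a leucine-rich repeat membrane protein, was above the floor on all 6 arrays. It had 795.5 in KO and 1073.6 in WT epididymal fat, 70.0 in KO and 64.2 in WT subcutaneous fat, and 225.2 in KO and 138.2 in WT brown fat. Subcutaneous fat was lowest, 2.63-fold below brown fat (log2 difference -1.40 ± 0.29 SE, subcutaneous minus brown, limma adjusted p = 0.0167). The epididymal level was 5.24-fold that of brown fat, the smallest gap of the 9 genes between those depots, and it passed with an adjusted p of 0.00397 in limma but with 0.057 when the WT brown fat array was left out.

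Nkain4, which encodes a partner protein of the sodium pump, had 722.2 in KO and 989.4 in WT epididymal fat, 63.3 in KO and 53.1 in WT subcutaneous fat, and 87.9 in KO and 89.8 in WT brown fat. Both subcutaneous arrays lay below both brown fat arrays, a difference that did not pass (log2 difference -0.49 ± 0.17 SE, limma adjusted p = 0.0757). Its epididymal level was 9.51-fold that of brown fat.

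Gpm6a, a gene for a proteolipid-family membrane protein of neurons, gave 1793.2 in KO and 1820.6 in WT epididymal fat on its brighter probe set, 169.8 in KO and 167.1 in WT subcutaneous fat, and 11.0 in KO and 48.2 in WT brown fat. Here brown fat was lowest, and the subcutaneous level was at least 2.67-fold higher (log2 difference 1.42 ± 0.13 SE, limma adjusted p = 0.00171). The second probe set gave 736.0 in KO and 810.2 in WT epididymal fat, with 65.6 in KO and 55.2 in WT subcutaneous fat and 39.1 in KO and 61.3 in WT brown fat. The step from subcutaneous to brown fat thus rested on 1 of 2 probe sets. Between those depots 2 of the 9 genes were called, Gpm6a as higher and Lrrn4 as lower in subcutaneous fat, beside 27.9% of all genes called higher and 18.5% lower, and with the floor at the 60th percentile 0 of the 9 were. With either subcutaneous or either brown fat array left out, 1 of the 9 passed, and with either epididymal array left out 2 did.

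Among the regulators, Wt1 encodes a zinc finger transcription factor of mesothelium, kidney and gonad, which in mice is also made by precursors of visceral adipocytes. It had 380.2 in KO and 559.8 in WT epididymal fat, 22.0 in KO and 12.6 in WT subcutaneous fat, and 65.8 in KO and 59.0 in WT brown fat. Its 1 probe set is of a design that can match related transcripts, as are the brighter sets of Upk3b and Gpm6a and the brightest of Upk1b. Without such sets the log2 difference from subcutaneous fat was 5.297 for Upk3b, 4.725 for Upk1b and 3.585 for Gpm6a. From brown fat it was 5.297, 4.725 and 3.612. The epididymal level of Wt1 was at least 7.31-fold that of subcutaneous and at least 7.16-fold that of brown fat, differences that its way into the fit required.

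Bnc1 encodes basonuclin, a zinc finger protein of keratinocytes and germ cells. It had 561.7 in KO and 893.9 in WT epididymal fat, 17.7 in KO and 18.8 in WT subcutaneous fat, and 23.0 in KO and 4.5 in WT brown fat. Like the brightest probe set of Upk1b it was above the floor in epididymal fat alone, at least 11.2-fold over either other depot (log2 difference 3.49). Bnc1 thus had to differ once in the fit, and its p-values are left out. Of all genes tested, 0.61% were above the floor on both epididymal arrays and on no other.

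Slpi encodes a secreted inhibitor of neutrophil elastase and related proteases, made by mucosal epithelia and by macrophages. It had 7072.1 in KO and 6380.6 in WT epididymal fat, 192.1 in KO and 317.9 in WT subcutaneous fat, and 162.1 in KO and 94.5 in WT brown fat. All 6 arrays were above the floor, and the epididymal level was 27.2-fold that of subcutaneous (log2 difference 4.76 ± 0.37 SE, limma adjusted p = 0.00665) and 54.3-fold that of brown fat. Both subcutaneous arrays lay above both brown fat arrays, a difference that did not pass (log2 difference 0.997 ± 0.37 SE, limma adjusted p = 0.0829). The remaining pairs of lower levels, those of Upk3b, Msln and Wt1, had limma adjusted p-values of 0.235, 0.368 and 0.923 between subcutaneous and brown fat.

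**Figure D2:**
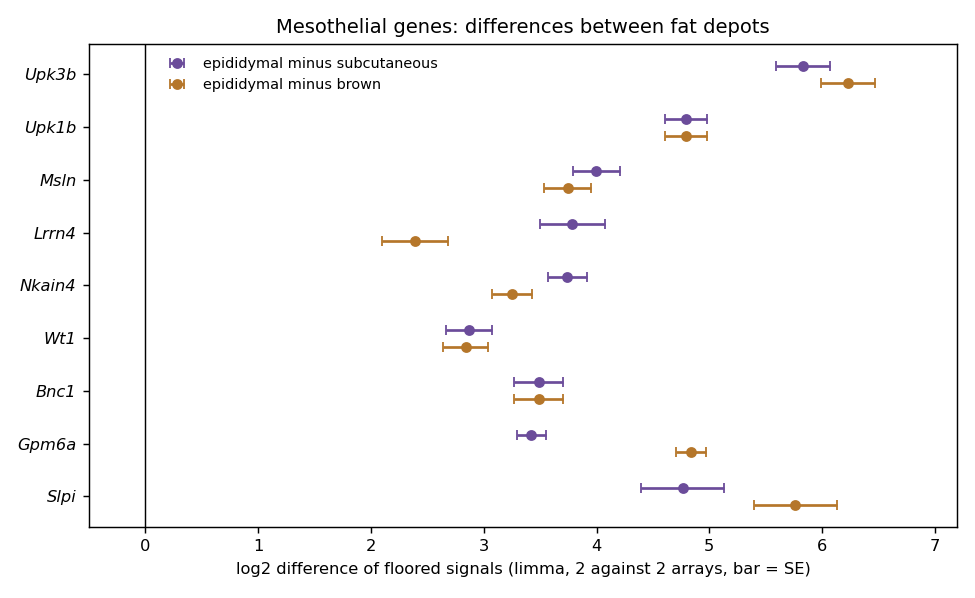
Log2 difference of floored signals (horizontal, points with SE bars from limma, 2 against 2 arrays) for each of the 9 mesothelial genes (vertical), epididymal minus subcutaneous in purple and epididymal minus brown in orange. All points lie to the right of 0, from 2.39 (Lrrn4 against brown fat) to 6.23 (Upk3b against brown fat), and the 2 differences part most for Lrrn4 and Gpm6a. Upk3b, Upk1b, Msln, Wt1 and Bnc1 had to differ, so their SE bars give no support.

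Promoter windows are shown for genes that share the epididymal pattern, to let their sequences be set side by side. The RefSeq table of build GRCm38.p6 gave windows from 250 bases before to 50 after a start site for 5 of the 9 genes, with 2 for Gpm6a. Those of Upk3b (chr5:136038246-136038545, plus strand), Lrrn4 (chr2:132880813-132881112, minus strand), Bnc1 (chr7:81992250-81992549, minus strand) and Slpi (chr2:164356458-164356757, minus strand) read 5′ to 3′ on the gene's strand. Capitals mark matches, on either strand, to GGAATG (bound by TEAD factors), GNGTGGGNG (WT1 and EGR factors) or GATAA (GATA factors), none of which overlapped another.
Upk3b: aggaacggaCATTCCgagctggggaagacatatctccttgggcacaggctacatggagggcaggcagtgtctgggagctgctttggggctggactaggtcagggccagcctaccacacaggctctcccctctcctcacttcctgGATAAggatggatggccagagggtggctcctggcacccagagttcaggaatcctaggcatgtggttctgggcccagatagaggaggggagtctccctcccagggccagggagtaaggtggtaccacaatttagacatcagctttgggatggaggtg
Lrrn4: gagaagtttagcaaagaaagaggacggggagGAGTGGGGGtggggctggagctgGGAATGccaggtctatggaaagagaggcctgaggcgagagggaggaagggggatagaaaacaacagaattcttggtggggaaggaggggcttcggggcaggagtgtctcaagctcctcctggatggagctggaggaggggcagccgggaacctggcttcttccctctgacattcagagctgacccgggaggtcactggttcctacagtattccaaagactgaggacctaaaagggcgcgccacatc
Bnc1: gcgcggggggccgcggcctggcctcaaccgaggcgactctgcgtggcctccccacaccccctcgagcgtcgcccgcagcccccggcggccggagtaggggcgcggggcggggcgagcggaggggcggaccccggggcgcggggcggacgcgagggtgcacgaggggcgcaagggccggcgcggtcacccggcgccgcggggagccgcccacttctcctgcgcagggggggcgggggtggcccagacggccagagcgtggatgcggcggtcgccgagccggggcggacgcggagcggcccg
Slpi: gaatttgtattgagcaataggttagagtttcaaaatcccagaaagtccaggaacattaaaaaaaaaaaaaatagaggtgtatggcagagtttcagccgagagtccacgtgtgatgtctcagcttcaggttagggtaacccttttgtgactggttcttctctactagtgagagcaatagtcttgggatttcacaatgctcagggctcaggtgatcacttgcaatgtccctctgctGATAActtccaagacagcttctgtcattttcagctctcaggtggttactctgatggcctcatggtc
GGAATG stood once each in the windows of Upk3b, 241 bases before the start site, of Lrrn4, 196 bases before it, and in 1 window of Gpm6a, 125 bases before it, while 14.7% of all 32851 windows held it. GNGTGGGNG stood in the Lrrn4 window alone, beside 14.3% of all windows, and GATAA in those of Upk3b and Slpi, beside 25.4%. Base composition set the windows apart. Bnc1 had 83.3% G and C and 50 CpG dinucleotides, against 58.7% and 2 for Upk3b, 58.0% and 7 for Lrrn4, and 43.3% and 2 for Slpi, with medians of 52.7% and 7 over all windows. A match is a string of letters and shows no binding.

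Within epididymal fat the KO array was lower than the WT array for 7 of the 9 genes, and for 5 of 9 after centring each array on its median, where Upk3b and Gpm6a turned positive. The median log2 difference, KO minus WT, was -0.43, against -0.02 for all 13244 genes measured there, of which 53.4% were lower. There was 1 array per genotype and so no test. Of the 9 genes, 0 were at least 2-fold different in either direction, where 0.883% of all measured genes passed that fold as higher and 1.44% as lower in KO.

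Bnc1 had the largest difference, 1.59-fold lower in KO (log2 -0.67). Wt1 was 1.47-fold lower, Upk1b 1.41-fold, Nkain4 1.37-fold and Lrrn4 1.35-fold lower. These 5 differences exceeded the SD of 0.31 on the log2 scale between probe sets of one gene, pooled over 5361 genes, which leaves out the spread between mice. Upk3b (log2 -0.06), Gpm6a (-0.02), Slpi (0.15) and Msln (0.19) lay within it. The split depended on scaling and probe set. After median centring Lrrn4 (-0.298) lay within the SD and Msln (0.321, higher in KO) beyond it. As the mean of its probe sets Upk1b (-0.296) lay within it. Both regulator genes were thus among the lower ones, while Msln and Slpi were the genes with the higher signal in KO.

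Before any centring, probe sets of one gene went the same way. Upk1b was lower in KO with all 4 of its probe sets, with log2 differences between -0.50 and -0.16, and Upk3b and Gpm6a were lower with both of theirs. Of all 14 probe sets, 12 were lower in KO and 2 higher, and 9 were lower and 5 higher after median centring. The median over genes was -0.41 after quantile normalization and -0.30 after centring each array on its median, which by itself moved the median of all genes to 0.11, and it was -0.18 with the floor at the 20th percentile, where Upk1b was represented by another probe set.

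**Figure D3:**
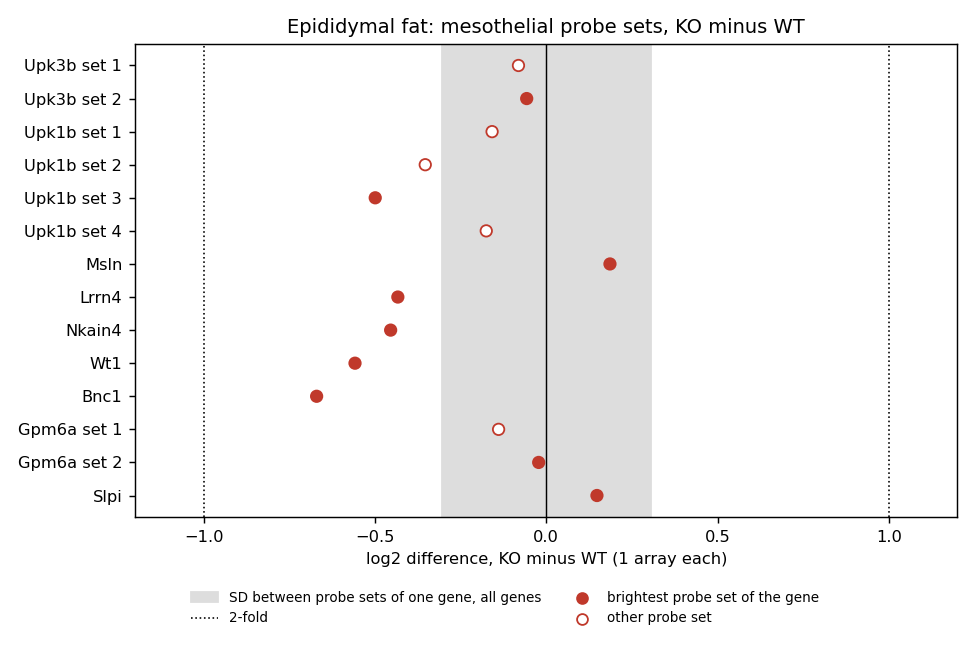
Log2 difference between the KO and the WT epididymal array (horizontal) for the 14 mesothelial probe sets (vertical), with filled points for the brightest probe set of a gene, open points for the others, a grey band at 1 SD between probe sets of one gene (0.31) and dotted lines at 2-fold. Of the points, 12 lie left of 0 (9 after median centring), none reaches 2-fold, and Bnc1 lies farthest left at -0.67.

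Other tissues and cell types were set beside this difference. Lymphocyte genes had a median KO minus WT difference of -0.39 in epididymal fat, close to that of the 9 genes, with 4 of 5 lower in KO, and Ms4a1 had 267.8 in KO and 409.3 in WT. Neutrophil genes had a median of 0.72 over 2 measured genes, S100a8 and Camp. S100a8, a calprotectin gene, had 1853.9 in KO and 712.4 in WT, while Camp lay near the floor with 66.2 in KO and 58.5 in WT. The neutrophil genes S100a9, Ltf and Ngp were under the floor on both epididymal arrays. Macrophage genes had 0.23 (0 of 5 lower, 1 of 5 after quantile normalization) and fibroblast genes 0.07 (3 of 8 lower). Adipocyte genes had -0.11 with 4 of 5 lower, which became 0.03 with 1 of 5 lower after median centring. Skeletal muscle genes had -1.40, with 4 of 4 lower in KO and a summed signal of 1612.6 in KO and 3478.8 in WT. Seminal vesicle genes had -0.64, with 5 of 6 lower and a summed signal of 3607.9 in KO and 5121.5 in WT. All 6 were above the floor on both epididymal arrays, and also on both brown fat arrays, where 0 of 6 were lower in KO. Their brown fat signals summed to 3080.2 in KO and 2367.0 in WT. The part of lymphocyte, neutrophil, muscle and seminal vesicle RNA in the result was not tested. Of the epididymis list, 0 of 6 genes were above the floor on both epididymal arrays, as were 0 of 6 of the testis list.

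In subcutaneous and brown fat few mesothelial signals could be compared between genotypes. In subcutaneous fat 5 of the 9 genes were measured, meaning at least 1 array above the floor, and 0 were 2-fold different, beside 2.21% of all genes higher and 0.75% lower. Upk3b was at least 1.75-fold lower in KO, with 4.4 in KO and 110.2 in WT on one probe set, while its other probe set was under the floor on both arrays and gave no order. Slpi was 1.66-fold lower. Lrrn4, Nkain4 and Gpm6a differed by at most 0.13 on the log2 scale.

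Several other lists were, like Slpi and Upk3b, lower in KO in subcutaneous fat. Macrophage genes had a median log2 difference of -0.51 (5 of 5 lower), fibroblast genes -0.29 (8 of 8) and lymphocyte genes -0.24 (5 of 5). Before any centring, 1 of 4 endothelial, 1 of 4 skeletal muscle and 0 of 4 lining epithelium genes were lower. All 6 seminal vesicle genes were lower in KO, 5 of them at least 2-fold, with a summed signal of 2029.9 in KO and 9196.6 in WT. Svs4 had 717.7 in KO and 3774.3 in WT. Neutrophil genes went the other way, with 5 measured, 0 lower and a summed signal of 2219.2 in KO and 863.5 in WT. The part of any of these tissues or cell types was not tested.

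In brown fat 5 genes were measured and 0 were 2-fold different, beside 1.11% of all genes higher and 2.42% lower. Slpi was 1.72-fold and Lrrn4 1.63-fold higher in KO, and Msln at least 1.42-fold lower. Slpi was therefore higher in KO in epididymal and brown fat and lower in subcutaneous fat, differences that 1 array per group cannot separate from spread. In the limma fit over depots, where the 3 depots stand in for replicates, 0 of the 9 genes and 0.0% of all genes passed for KO against WT. The smallest adjusted p among the 9 was 0.712, and 1088 of 14094 genes had an unadjusted p under 0.05.

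The gap between epididymal and subcutaneous fat was present in both genotypes. For the brightest probe set of Upk1b the gap was at least 23.3-fold in KO and at least 33.0-fold in WT, while the probe set with signal in WT subcutaneous fat had a narrower gap in WT than in KO. For Bnc1 the gap was at least 8.89-fold in KO and at least 14.2-fold in WT, and for Wt1 at least 6.02-fold in KO and at least 8.87-fold in WT. Subcutaneous signals of Bnc1, Wt1 and the brightest Upk1b probe set were under the floor in both genotypes, so these bounds differ only as the epididymal signals do. On its brighter probe set Upk3b had a gap of at least 73.7-fold in KO and 43.9-fold in WT. Slpi, measured above the floor throughout, had a gap of 36.8-fold in KO and 20.1-fold in WT. With 1 array per depot and genotype a difference between these gaps could not be tested.

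A further 19 genes of mesothelium were followed, of which 18 were tested. In epididymal against subcutaneous fat 6 were higher and 0 lower by limma, beside 1.23% and 4.12% of all genes. The median log2 difference of the 18 was 0.89. One of the 6, Muc16, was above the floor on the epididymal arrays alone and so had to differ. Against brown fat 16 were higher and 0 lower, beside 24.5% and 17.9% of all genes, with a median of 2.77. Muc16, the gene of a surface mucin of serosal membranes, had 529.0 in KO and 667.6 in WT epididymal fat and at most 57.5 elsewhere. Its epididymal level was at least 9.41-fold that of subcutaneous fat, and its p-values are left out. Rspo1, a gene for a secreted amplifier of Wnt signals, had 1061.4 in KO and 1489.1 in WT epididymal fat, against 120.4 in KO and 133.2 in WT subcutaneous fat (9.93-fold, limma adjusted p = 0.00456). Muc16 was under the floor on all subcutaneous and brown fat arrays, and the difference of Rspo1 between those depots did not pass (limma adjusted p = 0.173).

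Of 4 keratin genes of simple epithelia 2 passed as higher in epididymal than in subcutaneous fat. Krt8 had 774.8 in KO and 1135.4 in WT epididymal fat, against 159.9 in KO and 56.6 in WT subcutaneous fat, and Krt19 had 633.2 in KO and 791.6 in WT epididymal fat, against 132.2 in KO and 86.1 in WT subcutaneous fat (limma adjusted p = 0.029 and 0.0107). Krt7 had a log2 difference of 2.01 ± 0.40 SE and Krt18 one of 2.00 ± 0.58 SE, and neither passed (limma adjusted p = 0.0689 and 0.146). Aldh1a2, a gene of retinoic acid synthesis, was 4.10-fold higher in epididymal than in subcutaneous fat (limma adjusted p = 0.00554), and subcutaneous fat was in turn at least 2.66-fold above brown fat. The sixth called gene, Prg4, which encodes the lubricant lubricin and was picked out once its values were known, was 3.65-fold higher (limma adjusted p = 0.0264).

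Most of the genes that did not pass were above the floor on all epididymal and subcutaneous arrays, and Efemp1 and Ezr serve as examples picked out once their values were known. Efemp1, an elastic matrix gene, had 10003.0 in KO and 9661.8 in WT epididymal fat, against 4566.1 in KO and 6801.5 in WT subcutaneous fat, and Ezr, a gene that links membrane to actin, had 1169.9 in KO and 1156.0 in WT epididymal fat, against 1442.0 in KO and 1546.7 in WT subcutaneous fat. Calb2, the gene of calretinin, was under the floor on all 6 arrays, and Gata4, a gene of a transcription factor of visceral mesoderm, stayed between 21.5 and 81.2. Within epididymal fat 10 of 17 measured genes of this list were lower in KO, with a median of -0.11 (8 of 17 and 0.03 after median centring), and 0 were 2-fold different.

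Relatives of the 9 genes by protein family did not share the pattern. Of 15 relatives on the array 11 were tested, with a median log2 difference of 0.06 between epididymal and subcutaneous fat. Of these 0 were called, beside 1.23% of all genes called higher and 4.12% lower, a count near those shares. Bnc2, the relative of Bnc1, had 883.5 in KO and 1238.2 in WT epididymal fat and 624.8 in KO and 873.5 in WT subcutaneous fat. Gpm6b, the relative of Gpm6a, was 1.60-fold lower in epididymal than in subcutaneous fat (limma adjusted p = 0.185). Wfdc1, Wfdc3 and Wfdc12, which share the protease inhibitor fold of Slpi, had log2 differences of 0.76, -0.47 and 0.38. Lrrn1 was above the floor on 1 array, WT epididymal fat, at 120.9. Against brown fat, where 24.5% of all genes were called higher and 17.9% lower, 4 relatives were called higher and 3 lower in epididymal fat. The lower ones included the bladder gene Upk1a, picked out once its values were known, with 85.6 in KO and 81.4 in WT epididymal fat and 266.2 in KO and 284.1 in WT brown fat.

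**Figure D4:**
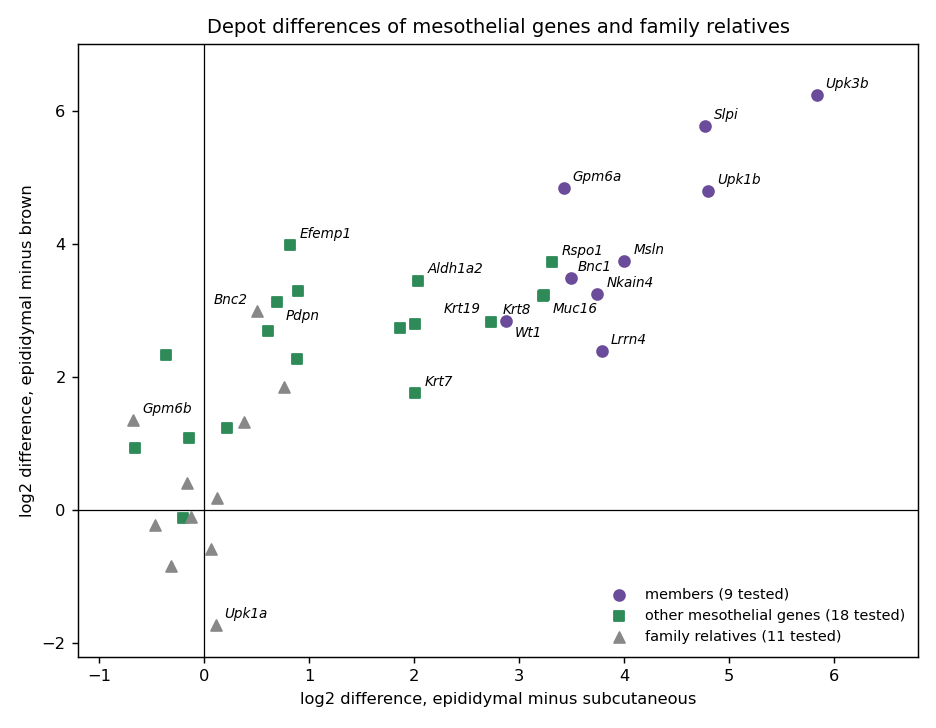
Log2 difference between epididymal and subcutaneous fat (horizontal) and between epididymal and brown fat (vertical) for the 9 mesothelial genes (purple circles), 18 further mesothelial genes (green squares) and 11 family relatives (grey triangles). The 9 genes lie at or above 2.87 on the horizontal axis, the further mesothelial genes reach 3.31 there, and the relatives lie between -0.68 and 0.76.

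Across the 6 arrays the 9 genes had similar profiles. Each was correlated with the mean log2 signal of the other 8 at a Pearson r between 0.902, for Lrrn4, and 0.999, for Upk1b, a description of 6 arrays that is set mainly by the step between epididymal fat and the rest. The 10 other genes most like their mean profile, among 2043 whose signal spanned at least 2 on the log2 scale, had r between 0.985 and 0.999. They were Muc16, Myrf, Tcf21, Rspo1, Perp, Col8a2, Alox15, Fam160a1, Krt19 and Igfbp2. Tcf21, a transcription factor gene of visceral adipocyte precursors, had 435.6 in KO and 394.8 in WT epididymal fat and at most 53.2 elsewhere. Alox15, a lipoxygenase gene that in mice marks resident peritoneal macrophages, had 442.7 in KO and 322.7 in WT epididymal fat and at most 15.1 elsewhere. Igfbp2, which encodes a binding protein of insulin-like growth factors, had 345.2 in KO and 704.6 in WT epididymal fat, 2.04-fold lower in KO. Myrf, a gene for a membrane-bound transcription factor, had 354.3 in KO and 437.8 in WT epididymal fat and at most 62.9 elsewhere.

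Other cell types differed between the depots too. Skeletal muscle genes had the largest median, -4.78, in epididymal minus subcutaneous fat, with a summed signal of 1612.6 in KO and 3478.8 in WT epididymal fat, against 39257.1 in KO and 38381.2 in WT subcutaneous fat, although 0 of 4 passed. Of 5 lymphocyte genes tested 5 were lower in epididymal than in subcutaneous fat, with a median log2 difference of -3.92. Of all genes tested, 1.23% were called higher and 4.12% lower there. Outside subcutaneous fat, Cd3g and Cd3e, the latter picked out once its values were known, exceeded the floor only on the WT epididymal array. Both entered the fit only through subcutaneous fat and so had to differ. The lymphocyte genes summed to 591.2 in KO and 833.7 in WT epididymal fat, against 10897.2 in KO and 12037.1 in WT subcutaneous fat. Adipocyte, macrophage and endothelial genes had 0 calls between those depots in either direction, with medians of 0.29, -0.08 and 0.08, and among 8 fibroblast genes 1 was lower. Neural genes, which Gpm6a and Lrrn4 share with nerve, had 0 of 5 members above the floor on both epididymal arrays, and 0 of the 3 tested were called. The genes of lining epithelia, such as Epcam and Krt5, had 0 of 4 called.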

How the data were processed

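The deposited values are intensities of Affymetrix probe sets, 1 per array, made with MAS5 in Affymetrix Expression Console per the submitters' processing notes; the labels name no version. The 2%-trimmed mean of the deposited intensities was 500.0 on every array, which hides any change in the total RNA of a cell. Symbols came from the platform annotation (34945 of 45037 probe sets other than controls had a single one, 932 had several and 9160 none), checked by gene identifier against RefSeq of GRCm38.p6, with 0 changed. The array's own build is not given, so coordinates are printed for RefSeq sequences alone.

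Intensities were raised to a floor (40th percentile, 63.2) and put on the log2 scale. The probe set with the highest mean represented a gene. limma (version 3.58.1, R 4.3.3) was fitted with depot and genotype to 14094 genes that exceeded the floor on 2 or more arrays. The p-values of each of the 4 contrasts were adjusted over all these genes (Benjamini-Hochberg, threshold 0.05). The fit was also run on simulated data, with changes given only to genes whose mean signal lay well above the floor. It therefore says little about genes at the floor outside epididymal fat. The depots' arrays of both genotypes stand in for replicates, so p-values measure the spread between these arrays, which need not be that between mice. Within a depot there is no test, and precision is limited by how few arrays there are. Python 3.11.15 with pandas 2.3.3 did the rest. Named genes are the 9, up to 6 genes each of the further mesothelial and family lists by size of the difference between white depots, up to 3 of other lists by signal, and the 10 most like the 9. The genes, lists and motifs were chosen with earlier results of these data known.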

Additional observations from a re-analysis of the deposited data

How the results depend on the processing

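The direction of every single-gene difference between epididymal and other fat held under all settings tried (0 reversed), with log2 differences between 1.43 and 7.75. Both epididymal signals exceeded all others for every probe set, so no change of floor or filter could have reversed a direction. Median centring by itself moved the median of all genes to 0.31 in epididymal against subcutaneous fat. The count of the 9 genes called in epididymal against subcutaneous fat was 9 under quantile normalization, median centring, a floor at the 60th percentile, the mean of all probe sets and an intensity trend, 7 of 7 with a filter at 3 arrays and 8 of 8 without probe sets that can cross-hybridise. It was 3 with the floor at the 20th percentile, 2 with no floor, 1 with no filter, 0 with the white fat arrays alone, and between 0 and 0 with 1 array left out, where all genes together had 0 calls. All genes called in that contrast numbered 755 in the analysis reported, 94 with the lower floor, 95 with none, 84 with no filter, 1497 after median centring and 1135 with the trend. Against brown fat the count lay between 7 and 9 under all settings. Between subcutaneous and brown fat it was 2, and 0 with the floor at the 60th percentile, 1 without cross-hybridising probe sets, 1 with no filter, 3 with the floor at the 20th percentile, with no floor or with the trend, and between 1 and 2 with 1 array left out. For KO against WT over depots it was 0 under all settings. Within epididymal fat 1 gene was past 1.5-fold and 0 past 3-fold. In subcutaneous fat the median KO minus WT difference was 0.004 over 5 measured genes, -0.67 after quantile normalization and -0.65 after median centring (3 measured), -0.35 with the floor at the 20th percentile (8 measured) and -0.73 at the 60th (1 measured), with 2 genes past 2-fold at the lower floor and 2 past 1.5-fold. In brown fat it was 0.06, and 0.39 with the floor at the 60th percentile (1 measured), with 1 gene past 2-fold after quantile normalization, 3 at the lower floor and 2 past 1.5-fold. The number of genes measured differed between several of these settings. Over the 5 genes of the analysis reported, the subcutaneous median was -0.04 after quantile normalization and -0.13 after median centring. The cause of the other shifts was not tested. No paired analysis was possible because each depot and genotype has 1 array and the labels carry no replicate numbers.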

Other observations

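Outside the epididymal pad, 2 keratin genes of simple epithelia were the further mesothelial genes past 2-fold in subcutaneous fat, beside 2.21% of all genes at least that much higher in KO. Krt18 had 211.4 in KO and 66.0 in WT subcutaneous fat (log2 difference 1.68) and Krt8 had 159.9 in KO and 56.6 in WT (at least 1.34). Epcam, an adhesion gene of lining epithelia, had 333.3 in KO and 206.9 in WT subcutaneous fat, and that list as a whole had 0 of 4 measured genes lower in KO, and 1 of 4 after either other scaling. Within epididymal fat the same 2 keratins were lower in KO, Krt18 by a log2 difference of -0.80 and Krt8 by -0.55. The genes were named after their values were seen, and 1 array per group gives no test.

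In brown fat 3 of the 16 further mesothelial genes measured there were at least 2-fold lower in KO, beside 2.42% of all genes, while 11 of the 16 were higher. Anxa8, an annexin gene, had 57.5 in KO and 402.9 in WT brown fat, Efemp1, an elastic matrix gene, 412.2 in KO and 934.7 in WT, and Krt7 49.4 in KO and 133.9 in WT. Fibroblast genes were lower in the same KO array for 8 of 8 members (7 of 8 after median centring), with a summed signal of 19344.9 in KO and 29948.8 in WT, and skeletal muscle genes for 4 of 4, with 334.0 in KO and 10579.9 in WT. Their part in these differences was not tested.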
